A study of Caenorhabditis elegans with 18 samples.

Results

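The 12 embryo libraries of Caenorhabditis elegans strains that carry an rbm-5 mutation were compared with the 6 libraries of strains in which rbm-5 is intact, 18 libraries in all. Membership was read from the strain labels alone. The mutant side held 2 alleles, rbm-5(n5132) and rbm-5(n5119), each alone and together with uaf-1(n4588), with 3 libraries per strain. The intact side held 3 libraries each of wild type (N2) and uaf-1(n4588). Thus 6 mutant libraries and 3 intact libraries carry uaf-1(n4588), and its presence was held as a block in each fit. The labels do not give the molecular change in any of these alleles or the age of the embryos. Animals were grown at 20 °C, and the libraries were made from total RNA of eggs that bleach had released from staged adults. The labels do not say that replicates came from separate cultures, so the p-values measure the spread between these libraries, which may be technical.

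RBM-5 is an RNA-binding protein related to human RBM5, which acts in the early spliceosome. The gene uaf-1 encodes the large subunit of U2AF, the factor that binds the pyrimidine tract at the 3′ end of introns and brings the U2 snRNP to the branch point. A mutation in a factor of this kind can show in which exons, exon ends and introns are kept in mature RNA, and in the level of transcripts.

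Each deposited list gives splicing and transcript-end events with an FPKM value, the number of mapped fragments scaled by transcript length and library size. Libraries listed 53772–55828 entries, and 26.7–33.7% of entries were at 0 FPKM. With FPKM alone and no counts, sequencing depth is unknown. Replicate 1 libraries had summed start FPKM of 1.25e+06–2.07e+06, against 8.04e+05–1.14e+06 in the others. On the first principal component of gene levels (27.4% of variance), rbm-5(n5119) replicate 3 (−72.8) and uaf-1(n4588); rbm-5(n5119) replicate 1 (−56.4) stood apart from the others (−29.6 to 50.4). These 2 libraries are on the mutant side and also had the most entries at 0, at 33.7% and 32.1%.

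Among 2505 splicing events tested over all 18 libraries, 1 passed (0.0399%), an exon of efa-6. EFA-6 is an exchange factor for the small GTPase Arf6 that restrains microtubule growth at the cortex of worm embryos and limits axon regrowth. The exon lies at IV:12611800–12611952 on the minus strand of WBcel235, is coding, and spans 153 bases, a multiple of 3. It is exon 4 of 10 in 2 annotated transcripts, and the junction that skips it is annotated too.

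The inclusion share of the efa-6 exon is the FPKM of the form with it over both forms. It was 1 in each of the 3 wild-type libraries, and the uaf-1(n4588) libraries had 1, 0.744 and 0.773. Shares were 0.613, 0.773 and 0.554 in rbm-5(n5119) and 0.669, 0.827 and 0.845 in rbm-5(n5132). In the double mutants they were 0.633, 0.608 and 0.497 with n5119, and 0.717, 0.455 and 0.673 with n5132. Every mutant library was thus below the 3 wild-type libraries, while the ranges of mutant libraries (0.455–0.845) and of all intact libraries (0.744–1) overlapped through uaf-1(n4588) replicates 2 and 3. The form without the exon was listed at 0 in uaf-1(n4588) replicate 1 and the wild-type libraries, at 8.34 and 11.5 FPKM in the other uaf-1(n4588) libraries, and at 8.63–31.5 FPKM in the mutant libraries. The form with it ranged from 24.2 to 67.1 FPKM in intact and from 22.2 to 51.8 FPKM in mutant libraries.

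In rbm-5 mutants inclusion of the efa-6 exon fell by 3.16 on the log2 scale of the ratio of forms, with 1 FPKM added to each (SE 0.53, adjusted p = 0.0333, limma with Benjamini-Hochberg adjustment). The level of efa-6 itself, from transcript start events, differed by a log2 of 0.16 (SE 0.22, adjusted p = 0.722; 0.93, SE 0.68, from end events), with medians of 54.4 FPKM in intact and 59.1 FPKM in mutant libraries. Against wild type the difference was −4.28 (adjusted p = 0.0247) in libraries with uaf-1 intact. Against uaf-1(n4588) it was −2.05 (adjusted p = 0.816) in libraries with that mutation. The term for the difference between these backgrounds was 2.22 (SE 0.93, unadjusted p = 0.0301, adjusted p = 0.999), and n5132 minus n5119 was 0.58 (SE 0.61, adjusted p = 0.808). Without the 2 libraries that stand apart the log2 change was −3.08 and did not pass (adjusted p = 0.0938). With replicates 2 and 3 only it was −2.80 (adjusted p = 0.372). The exon was not called with the replicate number as a block either. The call held under 6 of the 15 alternative settings. With single libraries left out the change stayed between −3.58 and −2.87, and the call held in 5 of 18 cases: without uaf-1(n4588) replicate 2 or 3, uaf-1(n4588); rbm-5(n5119) replicate 2, or uaf-1(n4588); rbm-5(n5132) replicate 1 or 3. Without any one of the other 13 libraries the adjusted p was 0.0513–0.180.

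**Figure D1:**
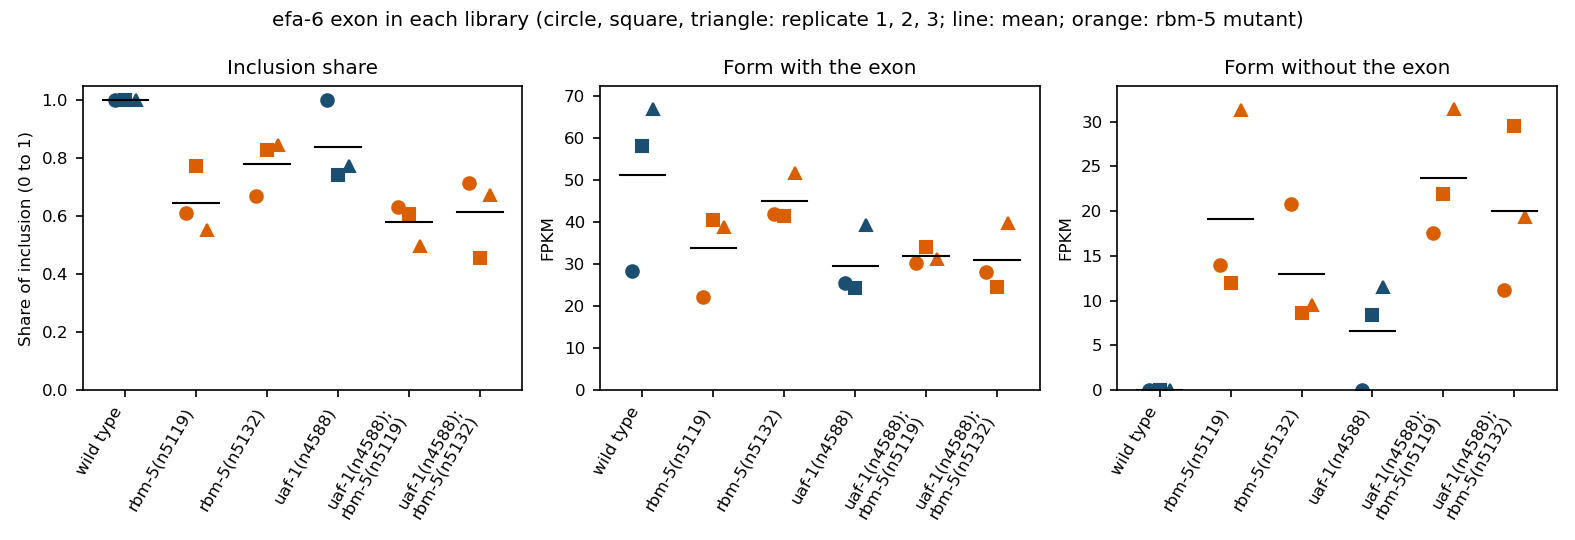
Each point is 1 library: inclusion share of the efa-6 exon (left, 0 to 1), FPKM of the form with the exon (middle) and without it (right), by strain, with the strain mean as a line. The 3 wild-type libraries are at a share of 1, and the 12 rbm-5 mutant libraries lie between 0.455 and 0.845.

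Over all events, values went both ways. At an unadjusted p under 0.05 there were 154 events (6.15%), of which 80 were higher (3.19%) and 74 lower (2.95%) in rbm-5 mutants. In 452 of the 2505 events, 25 of the 154 among them, 1 form was at 0 in all libraries, and their ratio moved only with the level of the other form. Of the 2053 events with both forms above 0 in some library, 129 had an unadjusted p under 0.05, 66 higher and 63 lower. The median log2 difference was 0.00 over 819 skipped exons (411 higher and 408 lower in value), 0.05 over 221 groups of exons skipped together (122 and 99), 0.00 over 1121 alternative exon ends (565 and 556) and −0.12 over 341 retained introns (147 and 194). For retained introns with both forms above 0 (277) the median was −0.15. Over all 341 it was −0.11 with uaf-1 intact and −0.10 with uaf-1(n4588). By type, 1 of the 819 skipped exons passed (0.122%), and 0 events of each other type did. Of the 819 skipped exons tested, 647 had a length that is a multiple of 3, as had 43 of the 51 (84.3%) with an unadjusted p under 0.05. Among the 2336 events with a share in at least 2 libraries of each strain, mutant and intact libraries failed to overlap in 0 (0%).

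No other event passed, and those of smallest p in each direction, 1 per gene, are described by their values. In noah-1, which encodes an apical matrix protein of the embryonic epidermis, the donor form of the exon at I:5875293–5875369 (coding, 77 bases) had shares of 0.396, 0.397 and 0.409 in the wild-type libraries. Its shares in uaf-1(n4588) were 0.367, 0.785 and 0.492. Its share was 1 in 9 of the 12 mutant libraries, because the other end was listed at 0 there, and 0.429, 0.536 and 0.689 in the other 3. The other end of the same exon is its counterpart, so it had the same difference with the sign turned. The noah-1 libraries overlapped, and the log2 difference was 6.22 (SE 1.42, adjusted p = 0.204). Without uaf-1(n4588); rbm-5(n5119) replicate 2, the mutant library with the lowest share, the noah-1 end passed at 6.81 (adjusted p = 0.039).

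The gene sax-3 encodes the Robo receptor of axon guidance. Its acceptor form at X:3452618–3452927 (coding exon, 310 bases) had a share of 1 in the 3 wild-type libraries, 0.857–1 in uaf-1(n4588) and 0.257–1 in mutants, with a mutant median of 0.854. All mutant libraries but rbm-5(n5119) replicate 2 listed the alternative end above 0. The log2 difference of the sax-3 form was −2.86 (SE 0.72, adjusted p = 0.382).

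An exon of etr-1, which encodes an RNA-binding protein of the CELF family, lies at II:168175–168393 (coding, 219 bases, a multiple of 3). The exon was listed at 0 FPKM in uaf-1(n4588) replicate 1 and the wild-type libraries, and at shares of 0.373 and 0.475 in the other uaf-1(n4588) libraries. Mutant shares of the etr-1 exon were 0.279–1 with a median of 0.400 (log2 4.56, SE 1.18, adjusted p = 0.382). Its locus was assembled together with T25D3.8.

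Retained introns of zipt-2.1, a zinc transporter gene, at IV:10800242–10801019 were listed at 0 in the 6 intact libraries. They were above 0 in 9 of the 12 mutant libraries, with shares of up to 0.302 and at most 2.53 FPKM (log2 1.40, SE 0.30, adjusted p = 0.191). A donor form of plc-1, which encodes phospholipase C epsilon, at X:10807964–10808102 was likewise at 0 in the 6 intact libraries and above 0 in 9 of 12 mutants, with shares of up to 0.625 (log2 1.46, SE 0.45, adjusted p = 0.693). In the reverse direction, a donor form of sea-2, a gene of sex determination, at II:3969301–3969422 was at 0 in the 12 mutant libraries and at shares of 0.185, 0.417 and 0.221 in 3 of the 6 intact ones (log2 −2.40, SE 0.51, adjusted p = 0.191).

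In crml-1, whose product resembles the actin regulator CARMIL, the form that retains I:7153666–7153841 had a share of 1 in the 6 intact libraries and 0.542–1 in 11 mutant libraries that list it (log2 −3.72, SE 0.96, adjusted p = 0.382). That span is not an annotated intron. An acceptor form of pqn-87, a gene of the glutamine- and asparagine-rich class, at II:12213392–12214968 had shares of 0.147–0.468 in intact and 0.350–0.714 in mutant libraries (log2 1.31, SE 0.39, adjusted p = 0.653). The remaining events named were exons of ketn-1, nlp-14 and dnc-1. The ketn-1 exon had a share in 6 of 12 mutant libraries. The nlp-14 share was 1 in 12 of the 16 libraries that have one. For dnc-1 the exon was at 0 in every library, so that its ratio (log2 −0.82, adjusted p = 0.464) moved only with the level of the form without it. Like etr-1, other loci named here were assembled with a further gene: plc-1 with frm-9, sea-2 with K10G6.11, crml-1 with K07G5.7 and ketn-1 with F54E2.7.

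**Figure D2:**
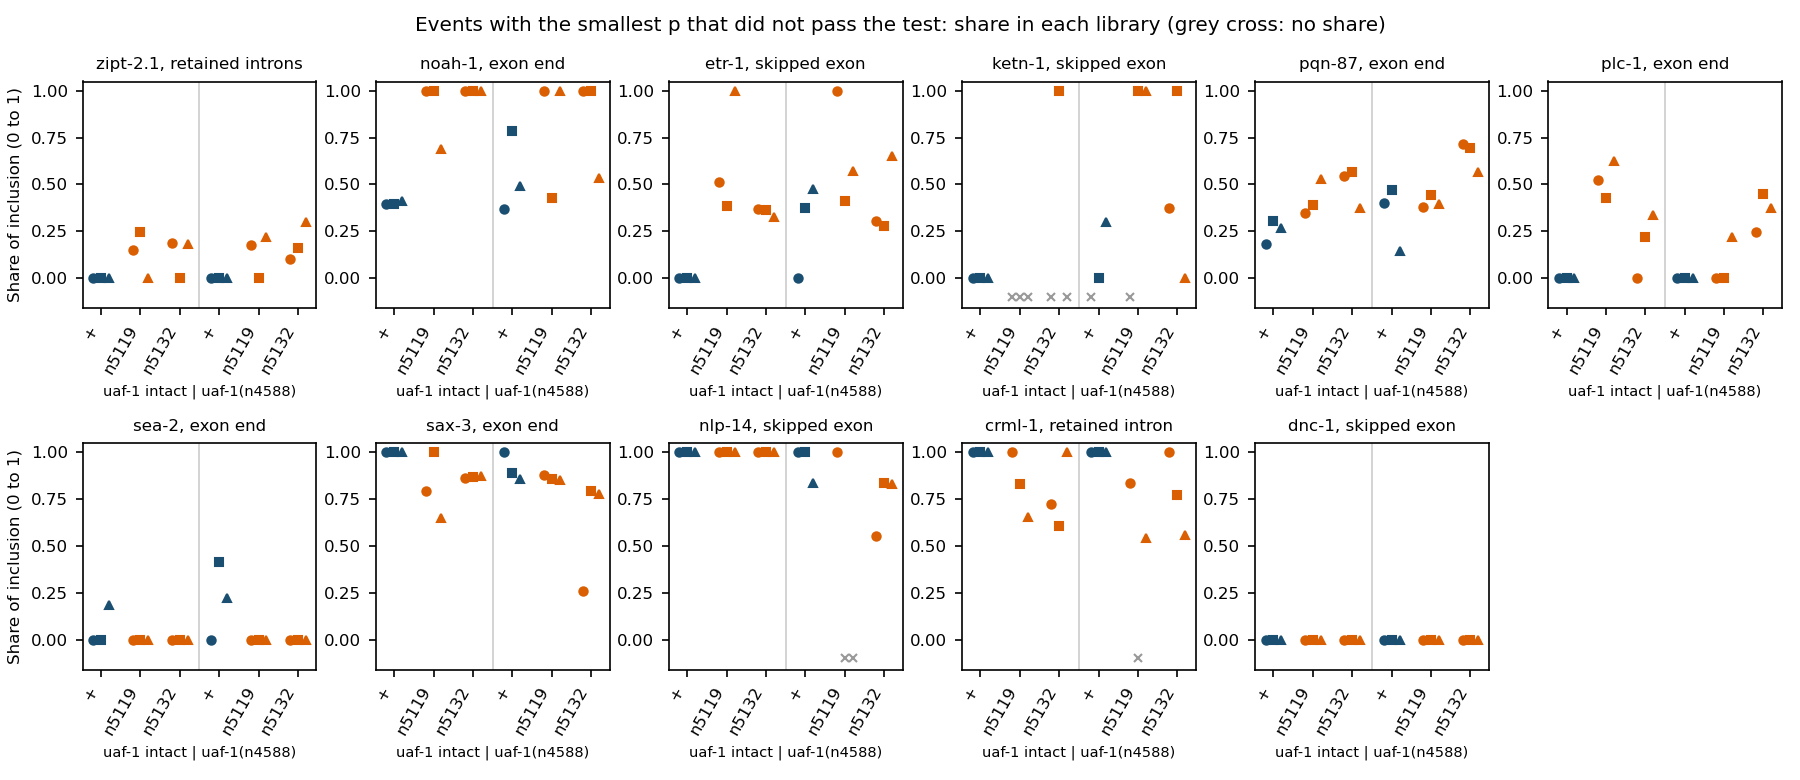
Share of inclusion (0 to 1) in each library for 11 events, those of smallest p in each direction with 1 per gene, leaving out the efa-6 exon. Libraries are ordered by rbm-5 allele (+ for intact in blue, mutants in orange). Those with uaf-1 intact are to the left and those with uaf-1(n4588) to the right of the line. A grey cross marks a library with no share. In the noah-1 panel 9 mutant libraries are at 1, and the zipt-2.1 and plc-1 forms are at 0 in the 6 intact libraries.

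The rbm-5 transcript was listed in all strains. From start events its level was 30.7 and 33.7 FPKM in 2 wild-type libraries, and the uaf-1(n4588) libraries held 31.1, 30.2 and 32.7 FPKM. The n5119 single mutants had 24.7, 29.8 and 32.7 FPKM, and their double mutants had 79.1, 42.8 and 33.6 FPKM. The n5132 single mutants had 64.6, 19.2 and 21.4 FPKM, and 2 of their double mutants had 91.7 and 18.1 FPKM. The 3 highest values are replicate 1 libraries of mutant strains, and the groups overlapped (log2 0.23, SE 0.34, adjusted p = 0.738). With replicates 2 and 3 only the rbm-5 difference was −0.21, and with uaf-1 intact −0.13, so the direction depends on the libraries. From transcript end events, which equalled the start events within 1% in 2 of 16 libraries, rbm-5 was at 30.7–64.7 FPKM in intact and 50–101 FPKM in mutant libraries (log2 0.61, SE 0.19, adjusted p = 0.449). A retained intron of rbm-5 at I:6215987–6216059 was listed in 5 of the 6 n5132 libraries, at the FPKM of its start events, and in none of the other 13 libraries. As the change in each allele is not given, neither this listing nor the transcript levels check the labels.

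Wild-type libraries held uaf-1 at 124, 218 and 185 FPKM, the uaf-1(n4588) libraries at 67.1, 105 and 124 FPKM, and the 12 mutant libraries at 138–236 FPKM. The overlapping groups gave a log2 difference of 0.44 (SE 0.17, unadjusted p = 0.0199, adjusted p = 0.473), which was 0.10 with uaf-1 intact and 0.77 with uaf-1(n4588). The muscle channel regulator unc-93 differed by a log2 of −0.00 (SE 0.43), with a direction that changed under 5 of 15 alternatives and with 11 of 18 single libraries left out. For tos-1, a gene whose splicing is used as a read-out of U2AF, the log2 ratio of forms for the exon at V:9343501–9343567 differed by −1.07 (SE 1.10, adjusted p = 0.841). Its shares were 0.403–1 in intact and 0.299–1 in mutant libraries. Against wild type the log2 ratio differed by −2.70 in rbm-5(n5119) and −2.68 in rbm-5(n5132). Mean shares were 0.948 in wild type, 0.961 in rbm-5(n5119) and 0.843 in rbm-5(n5132). The rbm-5(n5119) ratio thus fell without a lower share. There the form with the exon was at 12.9–190 FPKM, against 249–566 FPKM in wild type, and the other form was at 0 in replicates 2 and 3 of both strains. Against uaf-1(n4588) the log2 ratio differed by −0.31 in the n5119 and 1.42 in the n5132 double mutant. The term for the difference between these backgrounds was 3.25 (SE 2.13) and did not pass. Start events leave out the form of tos-1 with this exon in several libraries, so its level was read from end events, at 63.3–566 FPKM in intact and 12.9–391 FPKM in mutant libraries (log2 −0.98, SE 0.62, adjusted p = 0.493; −1.30 from start events).

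Of 7159 genes tested, 0 passed (0%; lowest adjusted p = 0.336), although 740 had an unadjusted p under 0.05 (10.3%), 341 of them higher (4.76%) and 399 lower (5.57%). The median over all genes was −0.13 on the log2 scale, and differences are read beside it. Levels are sums of transcript start events, which can leave out a form: over 123475 gene values they equalled the end events within 1% in 85.7%.

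The genes of smallest p are described by their values. Wild-type libraries held K07A12.8 at 10.4, 5.36 and 40.4 FPKM, and uaf-1(n4588) libraries held it at 256, 38.5 and 19.8 FPKM. In mutant libraries K07A12.8 was listed at 0 in 4 and reached 13.3 FPKM at most, with a median of 0.971 FPKM. Of the mutants, 1 library, uaf-1(n4588); rbm-5(n5132) replicate 1, was above the lowest intact value (log2 −3.57, SE 0.69, adjusted p = 0.336).

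The wild-type libraries held F56C3.9 at 7.22, 2.81 and 1.41 FPKM, and uaf-1(n4588) libraries held it at 28.3, 12.6 and 13.1 FPKM. Mutant libraries ranged from 0.196 to 2.98 FPKM (log2 −2.02, SE 0.40, adjusted p = 0.336). Its difference was −0.99 with uaf-1 intact and −3.04 with uaf-1(n4588). The 3 uaf-1(n4588) libraries of F56C3.9 were thus above every mutant library, while 2 of the 3 wild-type libraries overlapped with them. The other low genes were atf-8, which encodes a bZIP transcription factor (intact 110–298 FPKM, mutant 27.4–135 FPKM, log2 −1.28, SE 0.35), the nuclear hormone receptor gene nhr-148 (−0.76, SE 0.19), F37A4.3 (−1.19, SE 0.32) and C33B4.2 (−1.33, SE 0.37), each with an adjusted p of 0.473.

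On the higher side, the MYST family acetyltransferase gene mys-2 was at 36.6, 63.9 and 55.3 FPKM in the wild-type libraries and at 44.3 and 49.8 FPKM in 2 of uaf-1(n4588). Mutant libraries held mys-2 at 57.9–171 FPKM with a median of 101 FPKM (log2 1.04, SE 0.27). For cfp-1, whose product belongs to the complex that methylates histone H3 lysine 4, intact libraries ranged from 44.4 to 67.9 FPKM and mutant libraries from 58.1 to 98.4 FPKM (log2 0.50, SE 0.13). The zinc transporter gene zipt-2.4 was at 14.4–106 FPKM in intact and 53.9–153 FPKM in mutant libraries (log2 1.10, SE 0.29), and its 3 lowest values are those of uaf-1(n4588). The coelomocyte uptake gene cup-14 (0.77, SE 0.21), the neprilysin-family gene nep-1 (0.44, SE 0.12) and F19H6.4 (0.86, SE 0.23) had higher values too. From end events the differences were 0.64 for mys-2, 0.21 for cfp-1 and 0.11 for cup-14. Each of these 6 genes had an adjusted p of 0.473, and their groups overlapped.

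In 3 genes (0.0419%) mutant and intact libraries did not overlap. Levels of cmtr-1, a cap methyltransferase gene, were 34.2–45.7 FPKM in intact and 49.1–77 FPKM in mutant libraries (log2 0.51, SE 0.14). C05G5.2 was at 19–21.2 and 21.4–32.8 FPKM (log2 0.33, SE 0.11), and its libraries overlapped when read from end events. The zinc finger gene snai-1 was at 9.32–17.2 and 2.84–9.09 FPKM (log2 −0.74, SE 0.25). The adjusted p of each was 0.473. Libraries that do not list a gene were left out, and start and end values were compared in 15 libraries for cmtr-1 and 16 for snai-1. Read from end events, atf-8 did not overlap either, at 110–298 FPKM in intact and 31.7–108 FPKM in mutant libraries, and did not pass.

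**Figure D3:**
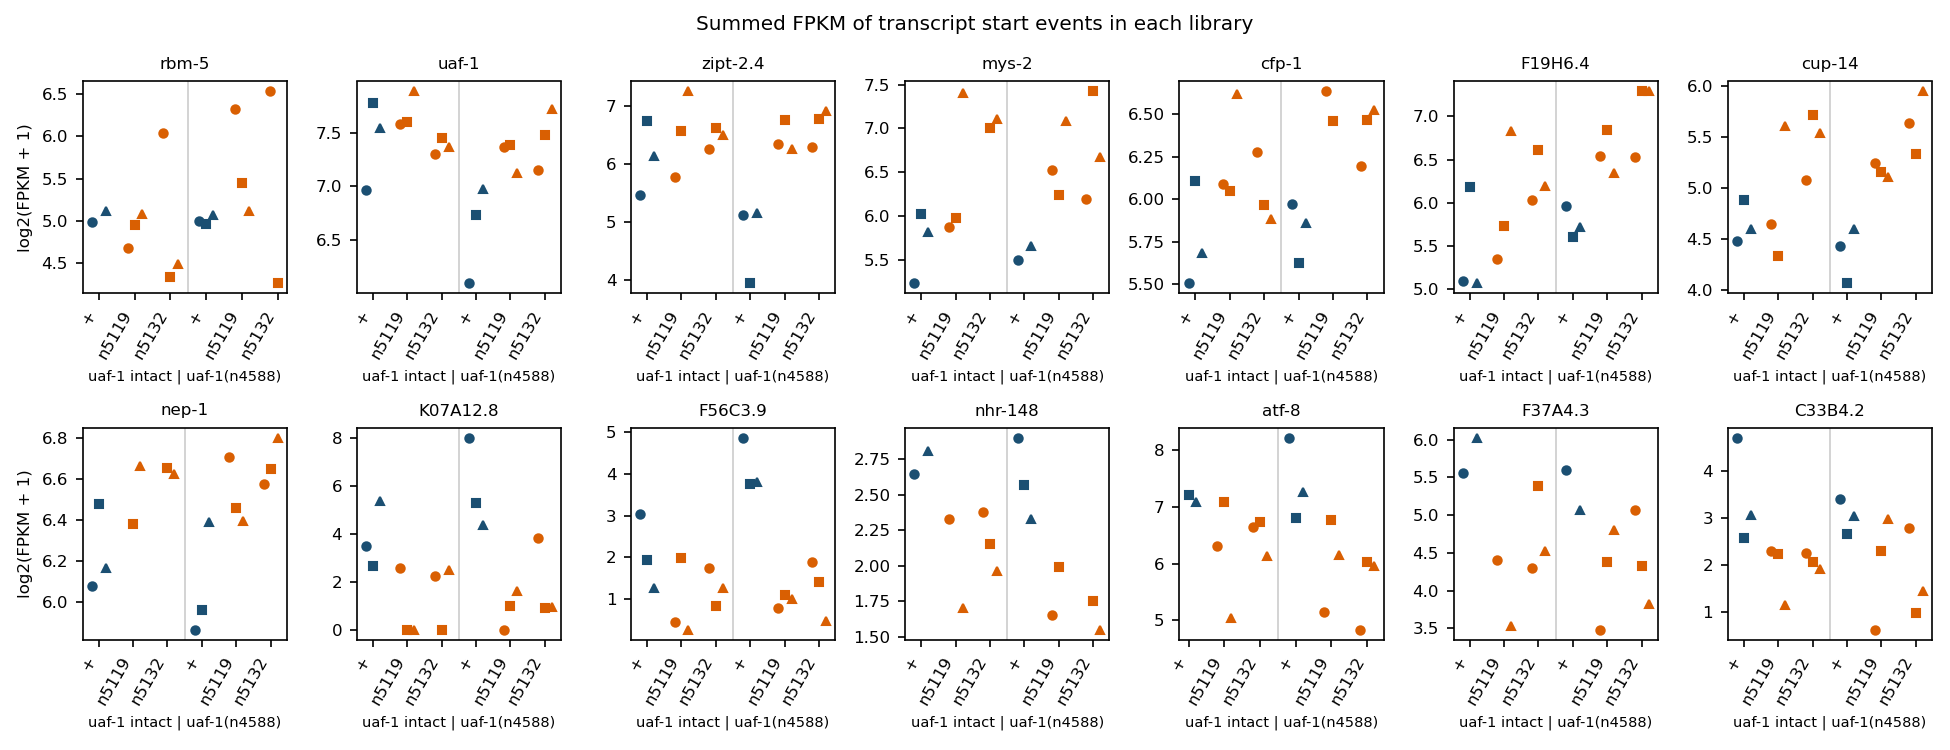
Level in each library, as log2(FPKM + 1) of summed start events, of rbm-5, uaf-1 and the 12 genes with the smallest p, by rbm-5 allele (+, intact, blue; mutants orange) with uaf-1 intact to the left and uaf-1(n4588) to the right of the line. K07A12.8 and F56C3.9 lie lower in most mutant libraries, with some overlap.

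**Figure D4:**
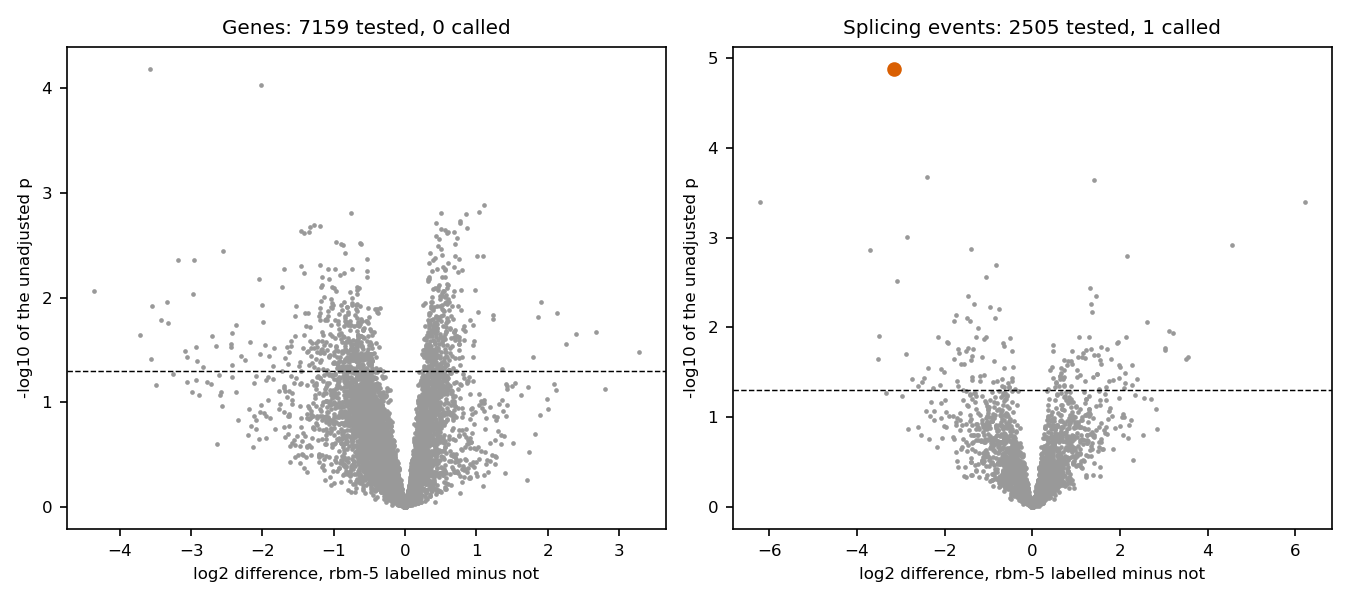
Log2 difference between rbm-5 mutant and intact libraries against −log10 of the unadjusted p for 7159 genes (left) and 2505 events (right); the dashed line marks an unadjusted p of 0.05. The efa-6 exon, the orange point, is the single event that passed.

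Lists of genes of the splicing machinery held no called member, beside 0% of all genes. Of the 21 core spliceosome genes tested from a list of 46, 14 were higher in value and 7 lower, with a median log2 of 0.22 beside −0.13 over all genes. Examples are sftb-1, a subunit of the U2 snRNP (log2 0.41, SE 0.14), snrp-200, a helicase that unwinds U4 and U6 (0.43, SE 0.16), and mog-5, a helicase of spliced RNA release (0.41, SE 0.14), each with an adjusted p of 0.473. Of 13 splicing regulators tested from 33, 10 were higher and 3 lower (median 0.29), among them tdp-1, the TDP-43 homologue (103 ± 15.2 FPKM, n = 5, and 145 ± 26.4 FPKM, n = 12; log2 0.47, SE 0.15, adjusted p = 0.473). The 3 U2AF and branch point genes tested from 11, uaf-1, rnp-6 and rbm-5, were higher in value (median 0.23). Of 5 nonsense-mediated decay genes, which remove transcripts with early stop codons, 4 were higher and 1 lower (median 0.16).

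Cell cycle genes had 14 higher and 2 lower of 16 tested (median log2 0.27). The replication helicase genes mcm-7 (312 ± 70.5 FPKM in intact, n = 6, and 441 ± 76.1 FPKM in mutant libraries, SD, n = 12; log2 0.51, SE 0.15) and mcm-3 (0.74, SE 0.23) and the cyclin gene cyb-3 (0.57, SE 0.23) each had an adjusted p of 0.473. Of the 18 maternal and oocyte genes tested from 24, 13 were higher and 5 lower (median 0.21), and of the 9 early zygotic genes, 8 and 1 (median 0.24). The polarity gene mex-5 was at 137 ± 60 FPKM in intact (SD, n = 6) and 223 ± 83.1 FPKM in mutant libraries (SD, n = 11; log2 0.76, SE 0.31, adjusted p = 0.473). The maternal median was 0.80 with uaf-1 intact and −0.36 with uaf-1(n4588). Without the 2 libraries that stand apart, medians were 0.16 for core spliceosome, 0.29 for splicing regulator, 0.23 for cell cycle, 0.20 for maternal and 0.17 for early zygotic genes, beside −0.04 over all genes. One of those libraries, rbm-5(n5119) replicate 3, had the highest summed level of cell cycle genes (4636 FPKM, at most 3848 in the others) and of splicing regulators (1592 FPKM, at most 1173).

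Most markers of differentiating tissue had lower values: 8 of 10 muscle genes (median −0.30), 4 of 5 pharynx genes (−0.26), 4 of 5 intestine genes (−0.28), 6 of 7 epidermis genes (−0.41) and 10 of 11 neuron genes (−0.31). Examples are the troponin T gene tnt-3 (87.0 ± 30.6 FPKM in intact, SD, n = 6, and 59.9 ± 24.6 FPKM in mutant libraries, SD, n = 12; log2 −0.60, SE 0.29, adjusted p = 0.473), the apical matrix gene noah-2 (−0.43, SE 0.24) and the tbb-4, a tubulin gene of ciliated neurons, (−0.52, SE 0.26). Scaling the libraries to 1 median moved the median of all genes from −0.13 to 0.00 and kept the sign of every list median named here, and the muscle, pharynx and neuron medians became −0.14, −0.13 and −0.26. Without the 2 libraries that stand apart the medians were 0.00 for muscle, 0.10 for pharynx, −0.12 for neuron, −0.20 for intestine and −0.41 for epidermis genes, beside −0.04 over all genes. With n5119 and intact libraries only, muscle was at −0.65 and pharynx at −0.84 beside −0.21 over all genes, and with n5132 and intact libraries only they were at 0.10 and 0.17 beside −0.01. The direction of the muscle and pharynx lists thus depends on which libraries enter. The neuron, intestine and epidermis medians stayed below 0 without the 2 libraries that stand apart. In these bulk samples, fewer cells of a type, less RNA per cell and another mix of embryo ages, which the labels do not give, cannot be told apart.

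Summed over the members listed in every library, maternal and oocyte markers ranged from 253 to 1777 FPKM in intact and from 444 to 2423 FPKM in mutant libraries. The highest mutant value was rbm-5(n5119) replicate 3. The same library had the lowest muscle sum, 114 FPKM of a mutant range of 114–1230 FPKM (intact 340–924 FPKM), and the lowest neuron sum, 166 FPKM of 166–523 FPKM (intact 310–438 FPKM). These sums overlapped between the groups, and their part in the gene results was not tested. Yolk genes of the adult intestine and sperm genes gave 0 genes tested, and of the 6 yolk genes, vit-1, vit-3, vit-4 and vit-5 stayed under 1 FPKM in every library that lists them.

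Programmed cell death genes, 15 tested of 31, had 9 higher and 6 lower (median 0.03). The 4 genes tested of the unc-93 channel complex and tos-1 had a median of −0.70, and the 5 stress and chaperone genes −0.63. The small heat shock gene hsp-16.2 was at 3342 FPKM in uaf-1(n4588) replicate 3 and listed at 0 in the other 17 libraries.

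**Figure D5:**
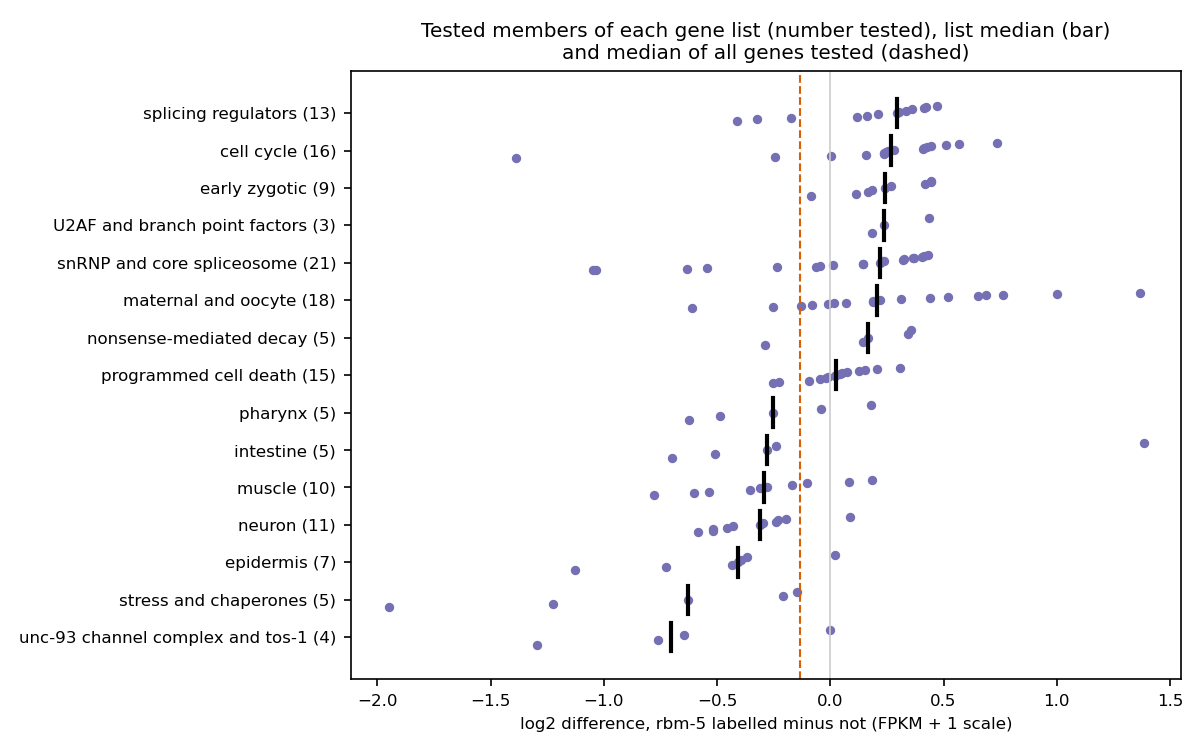
Log2 difference (rbm-5 mutant minus intact, FPKM + 1 scale) of each tested member of the gene lists, with the list median as a bar and the median of all genes as a dashed line. Splicing, cell cycle, maternal and zygotic lists have medians above 0, and tissue lists have medians of −0.26 to −0.41.

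Whether the rbm-5 difference depends on uaf-1 was asked with an interaction term. For genes, 0 of 7159 passed (0%), and 219 had an unadjusted p under 0.05 (3.06%). For events, 0 of 2505 passed (0%), and 88 had an unadjusted p under 0.05 (3.51%). The gene ikb-1, an IκB homologue, was at 37.7 and 17.1 FPKM in 2 wild-type libraries and listed at 0 in 2 uaf-1(n4588) libraries, while all mutant libraries that list it were at 7.14–32.5 FPKM (interaction 4.43, SE 0.72, adjusted p = 0.201). Read from transcript end events, the 2 uaf-1(n4588) libraries were at 5396 and 5034 FPKM, and the ikb-1 term was −7.93 and passed (adjusted p = 0.000118), so its direction depends on the end read. F23D12.7 was listed above 0 in 2 libraries, both uaf-1(n4588), at 24.8 and 3.35 FPKM from start and 0 from end events (−3.40, SE 0.62, adjusted p = 0.201). The mean of serp-1.2 was 1792 FPKM in wild type, 213 in uaf-1(n4588), 87.7 in rbm-5(n5119) and 303 in rbm-5(n5132). In the double mutants it was 1572 with n5119 and 2237 with n5132. Its libraries spread widely, from 57.4 to 3264 FPKM in intact and 42.5 to 4084 FPKM in mutant ones. The serp-1.2 term (7.46, SE 1.38, adjusted p = 0.201) kept its direction under all 11 alternatives.

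Among events, a form of uaf-1 that retains III:1074362–1074438, not an annotated intron, had a share of 0.687, 0.633 and 0.698 in wild type. Its share was 1 in the 3 uaf-1(n4588), 3 rbm-5(n5119) and 3 rbm-5(n5132) libraries and 0.308–1 in the double mutants (interaction −8.86, SE 2.09, adjusted p = 0.721). With uaf-1 intact libraries alone the uaf-1 form passed between rbm-5 mutants and wild type (log2 6.28, limma, adjusted p = 0.000159). The form without the retained span was at 0 in the 6 mutant libraries used. An exon of nrfl-1, a regulator of sodium-proton exchange, at IV:9120195–9120266 was included at 0.256–0.288 in wild type and at 0 in uaf-1(n4588). The single mutants had nrfl-1 shares of 0.273, 0.283 and 0 in rbm-5(n5119) and 0.388, 0.286 and 0 in rbm-5(n5132), so a share of 0 was also seen with uaf-1 intact. In the double mutants the nrfl-1 share was 0.211–0.392 in the 5 libraries that have one (interaction 4.72, SE 1.11, adjusted p = 0.721). The nrfl-1 locus was assembled together with 21ur-15625. With the uaf-1(n4588) libraries alone the nrfl-1 exon passed (log2 3.91, adjusted p = 0.0176). An exon of zipt-2.4 passed there too, but it was at 0 in all 9 of these libraries, so that its ratio moved only with the level of the form without it.

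The n5119 and n5132 alleles were set against each other over 6 libraries each. For genes, 0 passed (0%), and 588 had an unadjusted p under 0.05 (8.21%), 493 of them higher in n5132 (6.89%). For events, 0 passed (0%), and 161 had an unadjusted p under 0.05 (6.43%). The n5119 group holds both libraries that stand apart, and the median gene differed by 0.19. C34C12.7 was listed at 0 in the 6 n5132 libraries, at 0.460–4.83 FPKM in the n5119 libraries and at 2.32–5.77 FPKM in intact libraries (log2 −1.83, SE 0.30, adjusted p = 0.0818). C34C12.7 passed without the 2 libraries that stand apart (−2.28, adjusted p = 0.00012).

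An exon of ampd-1, the AMP deaminase gene, at II:5204670–5204705 (coding, 36 bases) was listed at 0 in 5 of the 6 n5132 libraries. Its shares were 0.694, 0.295 and 0.208 in rbm-5(n5119), 0.465, 0.277 and 0.197 in its double mutant, and 0.216–0.684 in intact libraries. The sixth n5132 library, uaf-1(n4588); rbm-5(n5132) replicate 3, was at 0.199, and n5132 minus n5119 was −3.84 (SE 0.70, adjusted p = 0.0862). Without that library the ampd-1 exon passed (−4.47, adjusted p = 0.00192). An exon of lea-1, a late embryogenesis abundant gene, at V:10025535–10025711 had shares of 0.237–0.381 in 5 of 6 n5132 libraries and 0 in the 6 n5119 libraries (log2 2.42, SE 0.46, adjusted p = 0.0862). Of the intact libraries, only wild type replicate 3 listed the lea-1 exon above 0, at 0.191.

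Transcripts were assembled per library, so an event can be listed in some libraries only. Of 31482 events, 2571 were listed in all 18 libraries and 16766 in 1 library. No event was listed in all 12 mutant and none of the intact libraries, or the reverse, and 3 were listed in at least 10 mutant and no intact libraries. These were both ends of an exon of tceb-3, the elongin A gene, at II:10944571–10945276 and II:10944634–10945276, and a retained intron of unc-77, a sodium leak channel gene, at IV:6163682–6163784. Each was listed in 10 of 12 mutant libraries, 5 per allele. The unc-77 locus was assembled together with 21ur-8078 and 21ur-12109. An exon of F25H9.6 at V:13467826–13467952 was listed in the 6 intact and in 1 mutant library, and one of tni-4, a troponin I gene, at IV:5204739–5204765 in the 6 intact and 3 mutant libraries. The number of entries of each type per library did not differ beyond the spread (9 measures, exact permutation test within uaf-1 backgrounds, two-sided, lowest p = 0.121, adjusted p = 0.653). Groups of exons skipped together, which gave that lowest p, numbered 403 ± 39.4 in intact (SD, n = 6) and 385 ± 13.6 in mutant libraries (n = 12; exact permutation test, as above).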

How the data were processed

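Total RNA of embryos was sequenced in 18 libraries. Reads were aligned with TopHat2 2.0.12 and Bowtie2 to WBcel235, per the submitters' processing notes. What assembled the transcripts and called the events is not given in the sources used here. The authors deposited, per the file headers, 1 list of events per library with an FPKM value for each. Values listed at 0 were kept, although a 0 can be a failed estimate. Event classes with an X prefix were not used.

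A gene's level was the summed FPKM of its transcript start events, which can leave out a form; end events were the alternative. An event's ratio was its inclusion FPKM over its exclusion FPKM, where the exclusion form of an alternative exon end was the set of other ends overlapping it. Tests took genes and events with a mean of at least 1 FPKM that each strain listed in 2 or more libraries. Values were taken as log2 with a pseudocount of 1 FPKM, so differences of low genes are understated.

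Tests used limma 3.58.1 in R 4.3.3 over all 18 libraries, with uaf-1(n4588) as a block, a mean-variance trend for genes, two-sided p-values and Benjamini-Hochberg adjustment over all features tested, called at 0.05. Tables were prepared with Python 3.11.15, pandas 2.3.3 and numpy 2.4.6. The fits were tested on simulated data with independent noise and no effect of replicate number, with 50 features changed at each size. A log2 change of 1 was recovered in 58% of genes and 14% of events, and one of 4 in 98% and 90%. There were 8 false calls over genes and 13 over events, so small changes can be missed and a single event call can be false. These rates hold where many features change, as the Benjamini-Hochberg cutoff is then looser than where 0 genes and 1 event pass. They do not carry over to the data, where K07A12.8 (log2 −3.57, SE 0.69) did not pass. Of 21702 gene labels, 18455 matched a symbol and 2294 a sequence name or synonym of the WBcel235 annotation, 943 matched none, and 10 were date-like.

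Named first were tos-1, unc-93, rbm-5 and uaf-1, then called features, filled to 6 each way with the smallest p. The interaction and allele contrasts name up to 3 features, each gene list up to 3 members, and genes whose libraries do not overlap, rbm-5's retained intron and hsp-16.2 were added after their values were seen. Members and lists were chosen with earlier results of these data known. Alternatives covered pseudocount, filters, scaling, the transcript end read, design, replicate block and the libraries used. The rest of the locus as exclusion form for exon ends was added after seeing the data.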

Additional observations from a re-analysis of the deposited data

How the results depend on the processing

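The call on the efa-6 exon was the only one under the settings reported, and its log2 difference kept its direction under all alternatives. The number of events called between rbm-5 mutant and intact libraries was 0 with a pseudocount of 5 (lowest adjusted p = 0.0957), without the filter on mean FPKM (0.0554), on the share itself (0.266), with replicates 2 and 3 only (0.302), without the 2 libraries that stand apart (0.0938), and with n5119 (0.243) or n5132 libraries (0.128) and intact ones only. It was 4 with uaf-1 intact libraries only (in efa-6, ketn-1, let-805 and uaf-1), 2 with uaf-1(n4588) libraries only (nrfl-1 and zipt-2.4), and 0 to 4 with single libraries left out. Of these, the ketn-1 exon had a share in 1 of the 6 mutant libraries used, at 0.947 FPKM, and the zipt-2.4 exon was at 0 in all 9 libraries used, so neither is a call on splicing. The number of genes called was 2 with one mean per strain (C07D10.6 and Y45G12B.3), 1 with n5132 and intact libraries only (C34C12.7), 1 with uaf-1 intact libraries only (K06A5.2) and 0 under the other 13 alternatives, and 0 to 0 with single libraries left out. The interaction called 1 gene each with a pseudocount of 0.1, scaled libraries, transcript end events (ikb-1) or one mean per strain (C07D10.6), 8 with replicates 2 and 3 only, 3 without the 2 libraries that stand apart, and 0 to 7 with single libraries left out. It called 1 event each with a pseudocount of 0.1 or on the share, 3 with replicates 2 and 3 only, and 0 to 1 with single libraries left out. The allele contrast called 1 gene each with a pseudocount of 0.1, scaled libraries, genes listed in all 18 libraries, no libraries that stand apart (C34C12.7 in these 4), one mean per strain (C07D10.6) and replicates 2 and 3 only (F26H11.8), and 0 to 1 with single libraries left out. It called 1 event with a pseudocount of 0.1 (ampd-1), 2 with replicates 2 and 3 only, and 0 to 2 with single libraries left out. The cause of these moves was not tested, although settings that drop libraries have fewer samples.

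Reversed directions were found in genes that passed no test between mutants and intact libraries. With replicates 2 and 3 only, log2 differences were −0.21 for rbm-5, 0.090 for nuc-1, −0.10 for pha-4 and −0.26 for cpr-6. With uaf-1 intact libraries only they were −0.13 for rbm-5, −0.052 for pat-3 and −0.069 for pha-4. With n5132 and intact libraries only they were 0.42 for unc-93, 0.018 for hsp-60, 0.12 for tnc-2 and 0.17 for tnt-4, and with uaf-1(n4588) libraries only 0.52 for unc-93 and 0.0087 for hsp-60. Values for unc-93 were 0.022 with a pseudocount of 5, 0.11 with scaled libraries, 0.29 without the 2 libraries that stand apart, and −0.29 to 0.15 with single libraries left out. Values for cpr-6 were −0.32 from transcript end events and −0.082 with values at 0 as missing. The ikb-1 interaction was −7.93 from transcript end events.

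With the replicate block, 0 events were called in place of 1 (lowest adjusted p = 0.0993) and 0 genes (0.252), and the block called 0 features in the other contrasts. Replicate numbers were not taken to pair the samples: deviations of same-numbered libraries from their strain means correlated at −0.359 to 0.411 over genes (over 0.1 in 21 of 45 pairs) and −0.183 to 0.202 over events (10 of 45). As a hint from the data, 13 of 18 libraries over genes and 11 of 18 over events correlated best with their own number. Replicate 1 also had the highest summed start FPKM in every strain. Whether libraries of a number share a batch was not tested, and the efa-6 call depends on leaving the block out.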
